A study of Homo sapiens with 6 samples.

Results

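The genes described here encode surface ligands that natural killer (NK) cells read on other cells: PVR, NECTIN1, NECTIN2, NECTIN3, MICA, MICB, ULBP1, ULBP2 and ULBP3. They are 9 of the 33496 genes listed in the deposited files, matched by symbol. PVR was picked because it is lower in Era+VK than in Era, so its difference between the groups is given as a description with no test. The other 8 were taken for their function. The RNA-seq data comprise 6 libraries of ARPE-19, a line of human retinal pigment epithelial (RPE) cells, labelled wild type. All cultures received erastin (5 μM, 24 h), an inhibitor of cystine uptake that triggers ferroptosis. In 3 libraries erastin was given alone (Era), and in 3 the cells were first given vitamin K1 (VK1, 10 μM, 1 h) in addition (Era+VK). What erastin itself does to these genes is not shown by any value here, since every library analysed here received it. The labels do not say whether the 3 libraries of a group came from separate cultures, and p-values then measure only the spread between these libraries.

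NK cells are lymphocytes that kill stressed, infected or transformed cells, and they weigh signals from activating and inhibitory receptors. PVR (CD155) and NECTIN2 (CD112) are adhesion molecules of the nectin family that engage the activating receptor DNAM-1 (CD226) and the inhibitory receptor TIGIT. PVR also binds CD96, and NECTIN2 the inhibitory receptor PVRIG. MICA, MICB and the ULBP proteins are relatives of MHC class I that appear under cell stress and engage the activating receptor NKG2D. ULBP1 is known as a target of ATF4, the transcription factor of the integrated stress response.

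Values are FPKM, fragments scaled by transcript length and by the mapped fragments of the library. Levels are set side by side between genes and libraries on this scale, with no further scaling in the main fit. The summed FPKM of a library ran from 228452.3 to 237958.1. No counts were used, low values did not fall on steps of whole reads, and the depth of each library is unknown. limma was run on the genes averaging 1 FPKM or more across all 6 libraries, on log2(FPKM + 1), with Benjamini-Hochberg adjustment over all 11981 such genes and a threshold of 0.05. Of the 9 ligand genes, 7 passed this minimum, and MICB and ULBP1 did not. FPKM are relative to the rest of a library, and in bulk RNA fewer cells of a kind and less RNA per cell cannot be told apart. The RPE and epithelial genes KRT18 (222 to 246 FPKM), KRT8 (171 to 209 FPKM), OTX2 (27.5 to 31.4 FPKM) and MITF (15.5 to 18.6 FPKM) were present in every library, as was VIM, the most abundant gene of this list (935.1 FPKM in the mean of Era and 771.0 FPKM in that of Era+VK, adjusted p = 0.0644 in limma, groups not overlapping). The RPE genes RPE65, TYR and RLBP1 reached at most 0.02, 0.17 and 0.29 FPKM, and BEST1 ran from 0.60 to 56.98 FPKM across libraries of both groups. In Era+VK replicates 2 and 3, 10 erythroid genes (globins, GATA1, KLF1, NFE2 and RHAG) summed to 239 and 232 FPKM, against 0.07 to 0.21 FPKM in the other 4 libraries. The tested ligand genes and the calls are therefore also given for Era+VK replicate 1 alone.

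The upstream sequences of 4 of the genes are shown because the results turn on PVR, MICA and MICB, and on the low level of ULBP1. They are RefSeq sequences on GRCh38.p14, 5′ to 3′ on the strand of the gene, cut where GENCODE 29 places an exon of the gene. Capitals mark matches to a GC box (GGGCGG) or to the core of a heat shock element (GAANNTTC) on either strand.
PVR (chr19:44643660-44643797, plus strand): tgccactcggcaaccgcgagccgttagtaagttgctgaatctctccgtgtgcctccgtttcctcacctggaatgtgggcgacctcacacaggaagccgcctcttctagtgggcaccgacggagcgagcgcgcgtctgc
MICA (chr6:31403345-31403578, plus strand): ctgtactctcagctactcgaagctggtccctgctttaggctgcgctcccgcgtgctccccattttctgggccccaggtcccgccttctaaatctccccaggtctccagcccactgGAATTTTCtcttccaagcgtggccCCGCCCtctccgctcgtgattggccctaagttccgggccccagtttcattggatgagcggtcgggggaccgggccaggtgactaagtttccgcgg
MICB (chr6:31497895-31498085, plus strand): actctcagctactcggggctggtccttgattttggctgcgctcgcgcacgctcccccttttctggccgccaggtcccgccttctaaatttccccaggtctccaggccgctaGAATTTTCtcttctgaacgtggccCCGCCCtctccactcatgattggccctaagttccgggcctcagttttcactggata
ULBP1 (chr6:149963693-149963942, plus strand): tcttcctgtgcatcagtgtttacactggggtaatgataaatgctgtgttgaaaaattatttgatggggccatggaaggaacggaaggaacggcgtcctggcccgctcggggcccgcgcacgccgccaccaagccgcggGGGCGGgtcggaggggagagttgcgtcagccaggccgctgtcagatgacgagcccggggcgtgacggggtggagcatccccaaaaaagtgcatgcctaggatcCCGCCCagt

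Over the 250 bases before the RefSeq start, MICA and MICB were identical at 82.7% of 254 aligned positions, while every other combination of the 8 ligand genes in the promoter table lay between 45.1% and 56.9%. Both carried the heat shock core GAANNTTC, which 5.78% of 35116 promoters of this length hold, at 135 bases before the start in MICA and 139 in MICB. The ATF4-type element TGATGNAA, which 3.14% of promoters hold, was found in none of the 8 windows. The same was so for the motifs TGACGTCA (CRE, 1.65% of promoters), TGANTCA (AP-1, 6.57%) and CACGTG (E-box, 6.35%). The window of PVR held none of the 6 motifs searched, the GC box included, which 42.6% of promoters hold. A match is a description of letters and not of binding.

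The ligand genes spanned a wide range of levels, and 2 of them, both ligands of DNAM-1, stood far above the rest. In Era, NECTIN2 was highest at 37.3 ± 1.79 FPKM, followed by PVR at 31.5 ± 0.676 FPKM (SD, n = 3 each), and their ranges did not overlap. MICA came next, 5.10 times lower than PVR, at 6.17 ± 0.821 FPKM, and NECTIN3 lay within its range at 5.56 ± 0.421 FPKM (SD, n = 3 each). ULBP2 at 2.71 ± 0.507 FPKM and ULBP3 at 2.31 ± 0.288 FPKM also overlapped (SD, n = 3 each), and NECTIN1 lay below them at 1.47 ± 0.0586 FPKM (SD, n = 3). MICB at 0.233 ± 0.106 FPKM and ULBP1 at 0.0433 ± 0.0404 FPKM were at the bottom (SD, n = 3 each). The order of the means was the same in Era+VK, where MICA and NECTIN3 no longer overlapped and ULBP2 and ULBP3 still did. PVR had a small spread between libraries of one group, with a coefficient of variation of 2.15% in Era and 2.54% in Era+VK, against 45.4% and 34.7% for MICB.

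**Figure D1:**
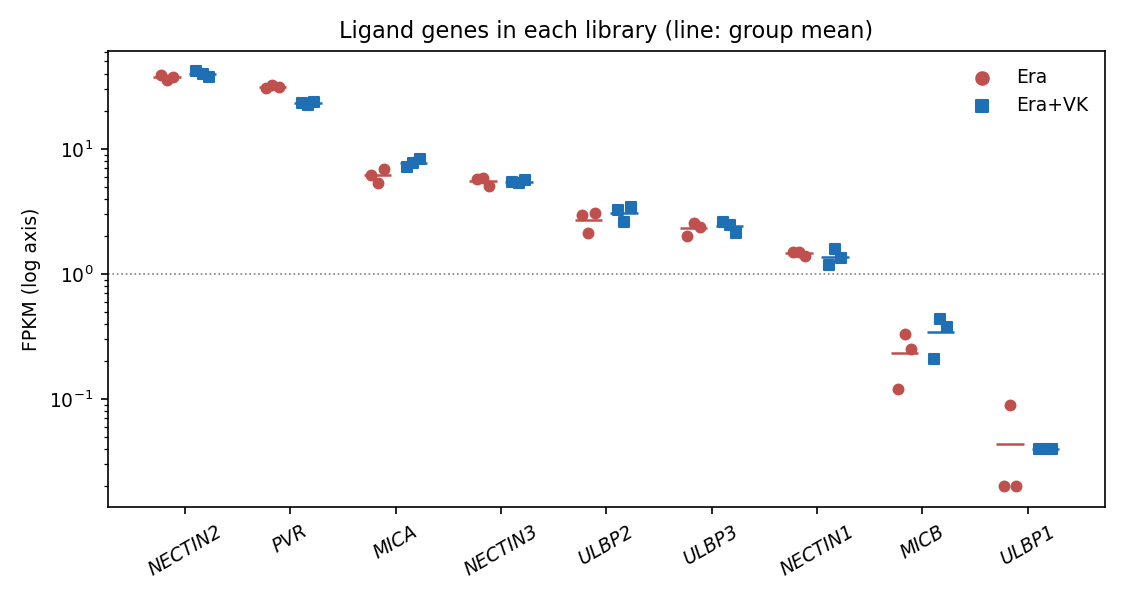
FPKM (log axis) of the 9 ligand genes in each of the 3 Era libraries (red circles) and 3 Era+VK libraries (blue squares), with the group mean as a line and 1 FPKM as a dotted line. NECTIN2 and PVR lie above 20 FPKM in every library, MICB and ULBP1 below 1 FPKM, and the groups separate for PVR and for MICA.

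PVR is the gene this set was built around. PVR (ENSG00000073008) lies on the plus strand of chromosome 19 of GRCh38, from 44643798 to 44663583 in GENCODE 29. Its product was first known as the poliovirus receptor, and it also binds vitronectin and other nectins at cell contacts. PVR was at 30.9, 32.2 and 31.4 FPKM in Era replicates 1, 2 and 3, and at 23.3, 22.5 and 23.7 FPKM in Era+VK replicates 1, 2 and 3. Each Era+VK library was thus below each Era library, as for 7.04% of all genes tested, from which nothing is read for a gene chosen on this contrast. The mean in Era+VK, 23.2 ± 0.589 FPKM (SD, n = 3), was 0.736 of that in Era. The log2 fold change was -0.43 (standard error 0.04), the 104th lowest of the 11981 genes tested, where the median was 0.03. Era+VK replicate 1, which lacks the erythroid transcripts, had a log2 fold change of -0.42 against the 3 Era libraries. With each library left out in turn, the value stayed between -0.44 and -0.41. No p is given, because the gene was chosen for this difference.

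The deposited files list 6 transcripts of PVR and give 1 value for all of them, so membrane-bound and secreted forms were not separated. The last 1306 bases of the PVR locus overlap the start of CEACAM19, a gene of the carcinoembryonic antigen family on the same strand. CEACAM19 was at 5.56, 5.70 and 6.41 FPKM in Era and at 4.75, 3.46 and 4.35 FPKM in Era+VK. Its groups did not overlap either, as for 7.04% of all genes tested in this direction. Its log2 fold change was -0.42 (standard error 0.10), and it did not pass (adjusted p = 0.121 in limma). Of the 75-base windows of PVR transcripts, 1.29% also occur in transcripts of other genes, and all of these occur in CEACAM19. The part of shared fragments in either value was not tested. PVR was between 4.89 and 6.51 times as high as CEACAM19 in the 6 libraries. An antisense gene that spans PVR, AC243964.2, was at 0.23 FPKM or less in every library. Within 200 kb of PVR on either side, the other 5 tested genes had log2 fold changes between -0.13 and 0.10, all with overlapping groups. They were ZNF229 (0.10), ZNF180 (0.01), BCL3 (-0.13), BCAM (0.02) and NECTIN2 (0.08).

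**Figure D2:**
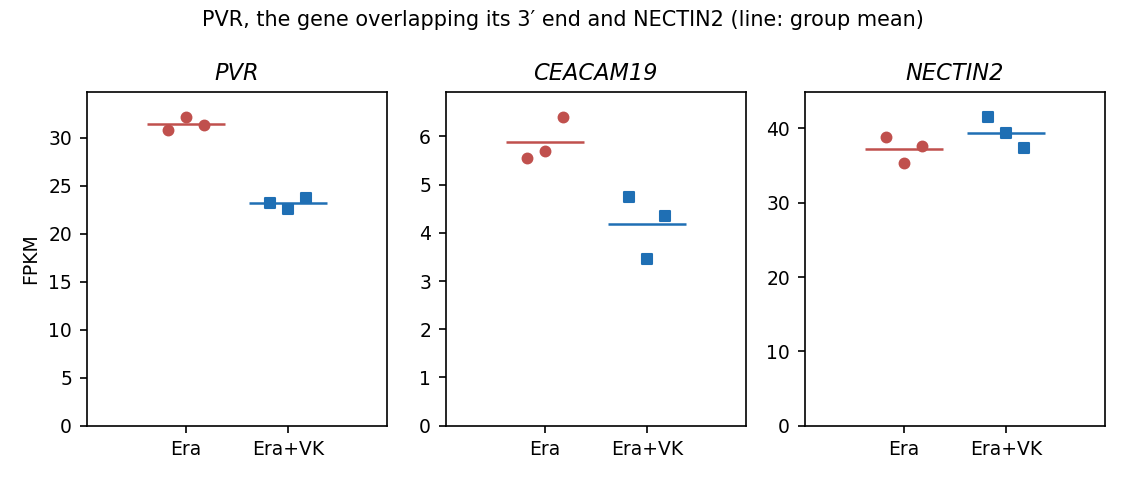
FPKM in each Era library (red circles) and Era+VK library (blue squares), with group means as lines and axes from 0, for PVR, for CEACAM19, which overlaps its 3′ end, and for NECTIN2, which starts 182592 bases further along. PVR and CEACAM19 are lower in every Era+VK library than in every Era library, as are 7.04% of all genes tested. The groups of NECTIN2 overlap.

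The 5 genes whose pattern was most like that of PVR were taken by Pearson correlation of log2(FPKM + 1) over the 6 libraries among the other 11980 genes tested. They were BAIAP2L1 (r = 0.990), an adaptor between membrane and actin, PLEKHG4 (r = 0.990), a guanine nucleotide exchange factor, BMPER (r = 0.989), a BMP-binding protein, AARS1 (r = 0.989), the cytosolic alanyl-tRNA synthetase, and ABLIM3 (r = 0.989), an actin-binding LIM protein. AARS1, for example, was at 17.3, 17.8 and 17.5 FPKM in Era and at 12.6, 13.2 and 13.1 FPKM in Era+VK. With 6 libraries in 2 groups, such a value mostly restates a difference between the groups and a small spread within them.

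NECTIN2 shares the receptors DNAM-1 and TIGIT with PVR and also binds PVRIG. NECTIN2 (ENSG00000130202, chromosome 19, 44846175 to 44889228) was at 38.9, 35.4 and 37.6 FPKM in Era and at 41.6, 39.4 and 37.3 FPKM in Era+VK. The groups overlapped, and the log2 fold change was 0.08 (95% interval -0.05 to 0.21, adjusted p = 0.532 in limma). The ratio of PVR to NECTIN2 was 0.793, 0.911 and 0.835 in the Era libraries and 0.559, 0.572 and 0.636 in the Era+VK libraries, so NECTIN2 transcripts exceeded those of PVR in every library. Summed, both genes gave 68.8 ± 1.12 FPKM in Era, against 62.6 ± 1.98 FPKM with VK1 (SD, n = 3 each). The group differences of this ratio and this sum contain the difference on which PVR was chosen and add nothing to it.

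NECTIN1 and NECTIN3 are cell adhesion molecules that bind each other and other nectins across cell contacts. NECTIN3 (ENSG00000177707, chromosome 3, 111070071 to 111275563), also a binding partner of PVR, was at 5.76, 5.85 and 5.08 FPKM in Era and at 5.43, 5.29 and 5.60 FPKM in Era+VK. Its log2 fold change was -0.03 (95% interval -0.17 to 0.11, adjusted p = 0.872 in limma). NECTIN1 (ENSG00000110400, chromosome 11, 119623408 to 119729084), an entry receptor of herpes simplex virus, was at 1.51, 1.49 and 1.40 FPKM in Era and at 1.19, 1.58 and 1.34 FPKM in Era+VK. Its log2 fold change was -0.06 (95% interval -0.24 to 0.12, adjusted p = 0.753 in limma). For both genes the groups overlapped. At the level of NECTIN1 the added 1 FPKM shrinks log2 fold changes.

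Among the NKG2D ligands, MICA was the most abundant and held between 51.0% and 58.1% of their summed FPKM in each library. MICA (ENSG00000204520, chromosome 6, 31399784 to 31415315) was at 6.20, 5.33 and 6.97 FPKM in Era and at 7.22, 7.72 and 8.26 FPKM in Era+VK. Each Era+VK library was above each Era library, a separation in this direction that 15.1% of all genes tested show. The log2 fold change was 0.29 (standard error 0.09, 95% interval 0.08 to 0.50), but MICA did not pass over all genes (unadjusted p = 0.0118, adjusted p = 0.195 in limma). Era+VK replicate 1 alone had a log2 fold change of 0.20 against the Era libraries, and MICA was higher in replicates 2 and 3, which hold the erythroid transcripts, whose part in this was not tested. MICA is among the most polymorphic genes of the MHC region, and the effect of the cell line's alleles on its FPKM was not tested. The lncRNA gene HCP5, which overlaps it on the same strand, was at 0.74 to 1.02 FPKM, and no 75-base window was shared with it.

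MICB (ENSG00000204516, chromosome 6, 31494881 to 31511124) was at 0.12, 0.33 and 0.25 FPKM in Era and at 0.21, 0.44 and 0.38 FPKM in Era+VK, below the minimum for testing. Its value in Era+VK replicate 1 lies within the Era range, and both libraries with erythroid transcripts lie above that range. MICA was more abundant than MICB in every library. No 75-base window was shared between MICA and MICB transcripts.

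The ULBP genes lie together on chromosome 6 and encode proteins held to the membrane by a lipid anchor or a transmembrane segment. ULBP2 (ENSG00000131015, 149942000 to 149949235) was at 2.96, 2.13 and 3.05 FPKM in Era and at 3.23, 2.60 and 3.45 FPKM in Era+VK. Its log2 fold change was 0.14 (95% interval -0.13 to 0.42, adjusted p = 0.594 in limma). ULBP3 (ENSG00000131019, 150063150 to 150069095) was at 2.0, 2.57 and 2.36 FPKM in Era and at 2.60, 2.48 and 2.14 FPKM in Era+VK. Its log2 fold change was 0.04 (95% interval -0.16 to 0.24, adjusted p = 0.850 in limma). In both genes the groups overlapped, and the library lowest in ULBP2, Era replicate 2, was the highest Era library in ULBP3. Levels of these genes are uncertain where copies share reads: 20.6% of the 75-base windows of ULBP2 transcripts also occur in other genes, chiefly RAET1L, and 9.41% of those of ULBP3, in RAET1K.

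ULBP1 (ENSG00000111981, 149964007 to 149973710), the ligand gene with a known link to ATF4, was at 0.02, 0.09 and 0.02 FPKM in Era and at 0.04 FPKM in each Era+VK library. It was below the minimum for testing, and the Era+VK value lies within the Era range. ATF4 itself fell, with 139.5 ± 5.76 FPKM in the Era libraries and 95.1 ± 5.99 FPKM with VK1 (SD, n = 3 each; -0.55 on the log2 scale, adjusted p = 0.0128 in limma). That call was lost without a filter on low values and without any 1 of the Era libraries. The summed FPKM of the 5 NKG2D ligands was 11.3, 10.5 and 12.7 in Era and 13.3, 13.3 and 14.3 in Era+VK. These groups do not overlap, as for 15.1% of all genes tested in this direction, and MICA, whose groups are separate too, makes up most of the sum.

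Of the 6 tested ligand genes other than PVR, 0 had an adjusted p under 0.05 in limma and 1, MICA, had an unadjusted p under 0.05, which 15.8% of all genes tested had. Of all genes tested, 0.618% had an adjusted p under 0.05, 0.134% higher and 0.484% lower in Era+VK. The groups of 1 of these 6 genes, MICA, did not overlap, beside 22.1% of all genes tested. The median log2 fold change of the 7 tested ligand genes was 0.04, beside 0.03 over all genes tested. With Era+VK replicate 1 alone against the Era libraries, the log2 fold change was -0.17 for NECTIN1, 0.15 for NECTIN2, -0.03 for NECTIN3, 0.20 for ULBP2 and 0.12 for ULBP3, and 0 of the 6 genes passed in limma.

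**Figure D3:**
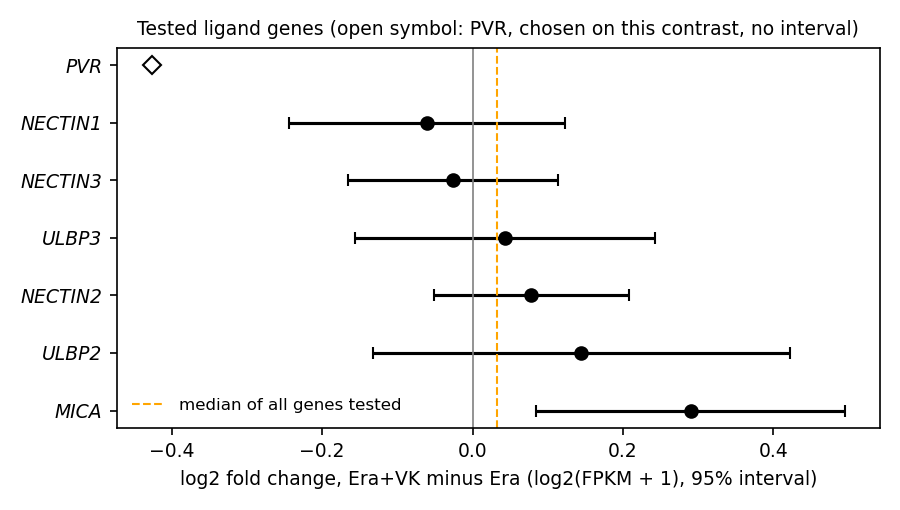
Log2 fold change of Era+VK against Era on the log2(FPKM + 1) scale for the 7 tested ligand genes, with the 95% interval from limma (6 filled circles) and no interval for PVR (open symbol), which was chosen on this contrast. The orange line is the median of all genes tested, 0.03, and the interval of MICA, from 0.08 to 0.50, alone lies wholly above 0.

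Other ligands that NK cells read were described from a list of 15 genes, of which 14 were in the files and 7 passed the minimum. In limma 0 of the 7 had an adjusted p under 0.05, and 1 had an unadjusted p under 0.05, beside 15.8% of all genes tested. BAG6, a chaperone that binds NKp30, was highest, with means of 39.1 FPKM (Era) and 37.4 FPKM (Era+VK) (log2 fold change -0.06). The LFA-1 ligand ICAM1 was at 3.65 and 3.25 FPKM (-0.13), and CD58, the ligand of CD2, at 6.49 and 6.91 FPKM (0.08). CADM1, a nectin-like ligand of CRTAM, was at 5.29 and 6.23 FPKM (log2 fold change 0.20, unadjusted p = 0.00534, adjusted p = 0.148 in limma). RAET1G is a further NKG2D ligand that is not in the sum above. It was at 0.52, 0.32 and 0.52 FPKM in Era and at 0.75, 0.80 and 0.60 FPKM in Era+VK, below the minimum for testing. Its groups did not overlap, as for 15.1% of all genes tested in this direction. NECTIN4, RAET1E and RAET1L were at 0.11 FPKM or less throughout, and ICAM2 was at 0 in 4 libraries and at 0.32 and 0.28 FPKM in the libraries with erythroid transcripts.

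MHC class I molecules hold NK cells back through their inhibitory receptors. Of 14 tested genes of this pathway, 1 rose and 0 fell in limma, beside 0.134% and 0.484% of all genes tested. The median log2 fold change of the 14 was 0.04. The gene that rose was CALR, a chaperone that helps load peptides, from 374.7 ± 4.99 to 465.6 ± 15.0 FPKM (SD, n = 3 each; adjusted p = 0.0386 in limma), or by 0.31 on the log2 scale. It did not pass with the replicate number as a block, without any filter, in Era+VK replicate 1 alone, or without any one library other than Era+VK replicate 2. Of the 14, 4 had an unadjusted p under 0.05, beside 15.8% of all genes tested. They were CALR, the peptide transporter TAP1 (4.89 and 6.15 FPKM, 0.28 on the log2 scale, adjusted p = 0.0813 in limma), and 2 heavy chain genes, 1 higher and 1 lower in Era+VK. HLA-C had means of 163.4 FPKM (Era) and 169.8 FPKM (Era+VK) (log2 fold change 0.06), and B2M was at 66.2 and 67.3 FPKM (0.02). Of 5 tested inhibitory ligands in limma, 0 passed and 2 had an unadjusted p under 0.05, beside 15.8% of all genes tested. CDH2, a cadherin, was at 44.6 and 44.1 FPKM (-0.02), CD276 at 33.6 and 34.9 FPKM (0.06), and CD47, a signal against uptake by macrophages, at 6.15 and 6.94 FPKM (0.15 on the log2 scale, adjusted p = 0.173 in limma). The other with an unadjusted p under 0.05, PDCD1LG2, a ligand of PD-1, was at 2.67 and 2.21 FPKM (-0.19 on the log2 scale, adjusted p = 0.179 in limma).

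Among 6 tested death receptors and inhibitors of killing, 0 passed in limma and 0 had an unadjusted p under 0.05. TNFRSF10B, a receptor of TRAIL, was at 41.3 and 39.5 FPKM (-0.06), and TNFRSF1A, a receptor of TNF, at 44.4 and 42.1 FPKM (-0.08). Of 10 tested partners of nectins at cell junctions, 0 passed in limma. Beside 15.8% of all genes tested, 1 of these partners had an unadjusted p under 0.05. It was AFDN, which encodes afadin and ties nectins to actin, at 35.5, 33.3 and 33.3 FPKM in Era and at 43.9, 34.7 and 41.2 FPKM in Era+VK (log2 fold change 0.22, adjusted p = 0.275 in limma), groups that overlap. CTNNA1 was at 60.5 and 62.8 FPKM (0.05) and the vitronectin receptor subunit ITGAV at 25.0 and 27.2 FPKM (0.11). Of 8 tested genes for shedding of surface ligands, 0 passed in limma and 0 had an unadjusted p under 0.05. Their log2 fold changes lay between -0.04 and 0.08. MMP14, a membrane-bound protease, was at 148.1 and 145.1 FPKM, and PDIA6, a thiol isomerase used in MICA shedding, at 74.7 and 75.9 FPKM.

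Of all genes tested, 0.484% fell and 0.134% rose in limma at an adjusted p under 0.05. Of 14 tested genes linked to the expression of these ligands, 1 fell and 0 rose. It was ATF4, whose call was lost without any 1 of the Era libraries and held with Era+VK replicate 1 alone. JUN was at 70.6 and 66.8 FPKM (-0.08), E2F1 at 19.43 and 19.05 FPKM (-0.03), and HSPA13, which has been tied to ULBP1, at 20.0 and 19.5 FPKM (-0.04). Of 12 ATF4 target genes, 6 fell and 0 rose in limma, beside 0.484% and 0.134% of all genes tested. The median log2 fold change of the 12 was -0.56. This fall was already known when the list was made. NUPR1, a stress-induced chromatin protein, fell from 32.4 ± 1.86 to 19.9 ± 1.71 FPKM (-0.68 on the log2 scale, adjusted p = 0.0128 in limma), and SLC7A11, the transporter that erastin inhibits, from 8.12 ± 1.06 to 4.75 ± 0.507 FPKM (-0.66, adjusted p = 0.0337 in limma; SD, n = 3 each). The others were ASNS (-0.95), CHAC1 (-1.19), PCK2 (-0.95) and PSAT1 (-0.95). Without any 1 Era library only PCK2 of the 12 passed. With Era+VK replicate 1 alone 5 of the 6 passed. The exception was SLC7A11, which was also not called with the replicate block or without Era+VK replicate 1 or 2. CHAC1 was not called without Era+VK replicate 2.

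**Figure D4:**
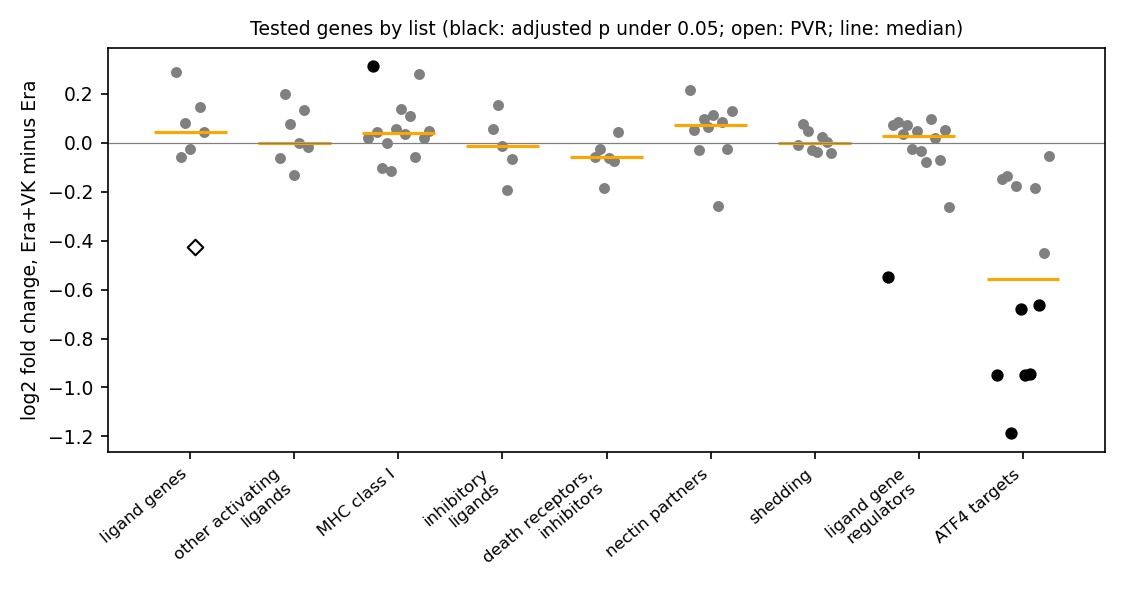
Log2 fold change of Era+VK against Era (log2(FPKM + 1) scale) for each tested gene, by list, with black points for an adjusted p under 0.05 in limma, grey points for the rest, an open symbol for PVR and an orange line at each median. The medians of the lists plotted lie between -0.06 and 0.07, except that of ATF4 targets at -0.56.

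The cultures held hardly any transcripts of the lymphocytes that carry the matching receptors. Of 15 receptor genes, 9 were listed in the files, and each was at 0.71 FPKM or less in every library, with PVRIG and NCR1 at 0 throughout. CD226, which encodes DNAM-1, was at 0.02 FPKM or less, and CD96 at 0.01 FPKM or less. Of 8 lymphocyte markers, 5 were listed, with a summed level of 0.06 to 0.14 FPKM in Era and 0.03 to 0.10 FPKM in Era+VK, KLRF1 at 0 in every library, and NKG7, GNLY and PRF1 at 0 in every library but Era+VK replicate 3.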

How the data were processed

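RNA of 6 ARPE-19 libraries was sequenced (paired-end, Illumina). The authors deposited FPKM per gene and library, with 2 decimals. The submitters' processing notes name cutadapt, HISAT2 and StringTie 2.1.6, and the build mm10, a mouse build, although all gene identifiers are human. The annotation, strand setting and filters are not given in the sources used here, and positions are those of GENCODE 29 on GRCh38, matched by Ensembl identifier. The cell line field counts up from ARPE-19 across the libraries, whereas every title reads ARPE-19.

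From these FPKM, limma 3.58.1 in R 4.3.3 (empirical Bayes with a trend) compared Era+VK with Era without a block, on log2(FPKM + 1), which understates changes of low genes. The test was tested on simulated data. Promoters are from RefSeq, with 8 of 9 genes matched, and alignments were made with Biopython 1.88. The members and lists were chosen with earlier results of these data known. Genes named are the ligand genes, those of each list past the threshold, up to 4 of each list with the highest mean, and those most like PVR. Others, among them CEACAM19 and the neighbours of PVR, NECTIN4, RAET1E, RAET1G, RAET1L, ICAM2, TAP1, PDCD1LG2, MITF, RPE65, TYR, RLBP1 and BEST1, were named after their values were seen, and some genes that the rule names are not reported here. Alternatives were another pseudocount, no filter or a stricter one, quantile normalization, rescaling without mitochondrially encoded genes, the replicate number as a block, each library left out, and Era+VK replicates 2 and 3 left out together, where the lone Era+VK library is assumed to vary like the Era libraries.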

Additional observations from a re-analysis of the deposited data

How the results depend on the processing

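The log2 fold change of PVR moved by less than the spread between libraries under every alternative tried. Of the other 6 tested ligand genes, 0 passed in limma under any of them (MICA: adjusted p between 0.167 and 0.482), and 2 changed sign: ULBP3 without Era replicate 1 (log2 fold changes from -0.0262 to 0.1004 with 1 library left out) and NECTIN3 without Era replicate 2 (from -0.0798 to 0.00623). With 1 library left out, NECTIN1 ran from -0.00535 (without Era+VK replicate 1) to -0.124 (without Era+VK replicate 2), NECTIN2 from 0.0402 (without Era+VK replicate 1) to 0.116 (without Era+VK replicate 3) and ULBP2 from 0.0258 (without Era replicate 2) to 0.234 (without Era+VK replicate 2). Over all genes, 74 passed, against 1 without a filter, 122 with at least 1 FPKM in every library, 112 after quantile normalization and 42 with the replicate block. With 1 library left out, 2 to 71 passed: 3, 2 and 5 without Era replicates 1, 2 and 3, and 42 without Era+VK replicate 3. Whether the replicate numbers pair the libraries was not settled by the correlations of their deviations. These were 0.0709, 0.103 and 0.021 for the same number, and between -0.114 and 0.0401 for different numbers. Not every library correlated best with its own number. In the MHC class I list, 1 gene, CALR, passed, and 0 did without a filter, with the replicate block or without Era+VK replicates 2 and 3 together, and 0 to 1 with 1 library left out. Among regulators, 1 (ATF4) passed, 0 without a filter, 2 (ATF4 among them) with the stricter filter and after quantile normalization, and 0 to 1 with 1 library left out. Of the ATF4 targets, 6 passed, 1 without a filter and 1 to 6 with 1 library left out, the 1 in each case without an Era library. After quantile normalization, and after rescaling without mitochondrially encoded genes, 7 passed. TRIB3 was among these 7 and lay just above the threshold in the main fit (adjusted p = 0.055 in limma). Of the RPE markers, 0 passed in limma (3 with an unadjusted p under 0.05, beside 15.8% of all genes tested). After rescaling without mitochondrially encoded genes 1 (VIM) passed, and 0 to 1 did with 1 library left out. Of the erythroid genes, 0 passed in limma (6 with an unadjusted p under 0.05, beside the same 15.8%). With 1 library left out 0 to 6 of them passed, the 6 without Era+VK replicate 1. Depth is unknown, so the counting error of low genes such as MICB and ULBP1 cannot be given.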
